A study of Mus musculus with 4 samples.

Results

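Non-classical monocytes were selected from single-cell counts of mouse blood by their own transcripts, and 224 of 15439 kept barcodes (1.45%) met the rule. A barcode stands for a droplet with a cell, and a UMI (unique molecular identifier) for 1 captured RNA molecule. Barcodes were kept with at least 200 detected genes and at most 10% mitochondrial UMIs. A non-classical monocyte then needed at least 1 UMI of Csf1r or Ms4a6c, at least 2 UMIs of the sum of Ace, Fcgr4, Treml4, Cd300e, Ear2 and Fabp4, and more UMIs of these 6 genes than of Fn1, F13a1, Ccr2 and Vcan together. It could hold no more than 1 UMI each of the B cell genes Cd79a, Cd79b and Ms4a1, of the T cell genes Cd3d, Cd3e and Cd3g, and of the neutrophil genes Cxcr2 and Retnlg. Because measured UMIs chose the cells, every level of these genes, and every contrast of these cells with other cells, is given as a description without a test.

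All mice were C57BL/6J, 10 weeks of age, carried acute lymphoblastic leukaemia by inoculation and had received dasatinib, a tyrosine kinase inhibitor, for 1 week when they were bled in remission. After 4 further weeks of the drug, 6 mice were still in remission at day 100 (Cured) and 6 had relapsed (Relapsed), so outcome came later than the blood and leukaemia, drug and schedule were shared by both groups. Leukocytes were frozen, thawed, sorted as live cells and pooled from 3 mice per library, which gave 2 Cured and 2 Relapsed libraries in which no cell can be assigned to a mouse. The comparison addresses how leukocytes sampled early under the drug differed between mice with these later outcomes.

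Monocytes of mouse blood fall into classical cells, which carry much Ly6C, follow the chemokine receptor CCR2 into inflamed tissue and are short-lived, and non-classical cells, which carry little Ly6C and patrol the inner wall of blood vessels. Non-classical monocytes derive largely from classical ones, need the nuclear receptor NR4A1 and signals through the CSF1 receptor, and clear cell debris and immune complexes from the endothelium. They also carry the activating Fc receptor FcγRIV, encoded by Fcgr4, through which mouse antibodies can direct the killing of coated cells.

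The 4 libraries held 3631 to 4383 barcodes with 7184045 to 10840397 UMIs, and 72.9% of the kept barcodes fell in a B cell gate. Any pair of libraries had 20 to 29 barcode sequences in common, but no barcode of a non-classical monocyte was found among those of another library. The non-classical monocytes carried 42951 and 196884 UMIs in the Cured libraries, against 132116 and 226421 in the Relapsed libraries. Cured 1 was therefore the thinnest sum, from 22 cells. GFP_1 and BCR_ABL_1, the added vector and leukaemia sequences, had no UMI in the 224 cells, which allows a share of up to 1.34% of cells with a UMI.

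Few barcodes lay at the threshold of gate UMIs, and more were set apart by the other limits. Of 734 kept barcodes with Csf1r or Ms4a6c UMIs, 295 had 2 or more UMIs of the 6 gate genes, and 278 of these had more gate than counter-gate UMIs. The limits on B, T and neutrophil genes then left 257, 244 and 224 barcodes in turn. The median sum of gate UMIs was 8 per cell, with a range of 2 to 23. Just inside the threshold lay 13 cells with a sum of 2 and a median of 1218 UMIs in all, and just outside lay 7 barcodes with a sum of 1 and a median of 686 UMIs. A further 2 barcodes were tied between gate and counter-gate, and 11 with 2 or more gate UMIs had more counter-gate UMIs. Another 19 met every other limit but had no UMI of Csf1r or Ms4a6c. Barcodes that failed on B, T or neutrophil genes alone numbered 19, 13 and 20.

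Most cells carried several of the 6 genes at once, since 66 of 224 held UMIs of 4 of them, 44 of 5 and 15 of all 6, and 11 held UMIs of 1 alone. Ace, the angiotensin-converting enzyme on the cell surface, was found in 82.1% of the cells. Ear2, a ribonuclease of the eosinophil-associated family, was found in 74.6% and Fabp4, a fatty acid carrier, in 59.8%. Fcgr4 was found in 55.8%, Treml4, a TREM-like receptor, in 52.2% and Cd300e, an activating receptor of the CD300 family, in 38.8%. The median depth was 2220.5 UMIs in non-classical monocytes, against 2142 in B cells, which should lack these genes, and in B cells the share with a UMI was 0.0889% or less for each of the 6. The B cell gate asked for at least 3 UMIs of the B cell genes and none of Csf1r or Ms4a6c, so selection can lower this share. Of the genes that the gate set against them, Ccr2 had UMIs in 13.4% and Fn1 in 3.57% of the cells. The 36 cells with any counter-gate UMI were deeper, at a median of 3491.5 UMIs.

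Levels are given below as CPM, the UMIs of a gene scaled to a common total for the class in a library, which are not scaled by gene length because a molecule is counted once from its 5′ end. The 6 gate genes summed to 3353 and 2819 CPM in the Cured libraries, against 3482 and 3264 CPM in the Relapsed libraries. The same sum was 45.9 to 196 CPM in classical monocytes, 67.9 to 123 CPM in neutrophils and 0.625 to 1.16 CPM in B cells. These low sums are partly set by selection. The neutrophil gate took only barcodes with fewer than 2 UMIs of the 6 genes, and the B cell gate none with Csf1r or Ms4a6c UMIs. Neither Cd300e nor Fabp4 had a UMI in the 101 classical monocytes, which allows up to 2.97% of cells with a UMI. Classical monocytes were taken with the mirrored gate (more UMIs of Fn1, F13a1, Ccr2 and Vcan, at least 2, than of the 6 genes). They numbered 8 and 34 in the Cured and 32 and 27 in the Relapsed libraries and were deeper, with a median of 5199 UMIs per cell.

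**Figure D1:**
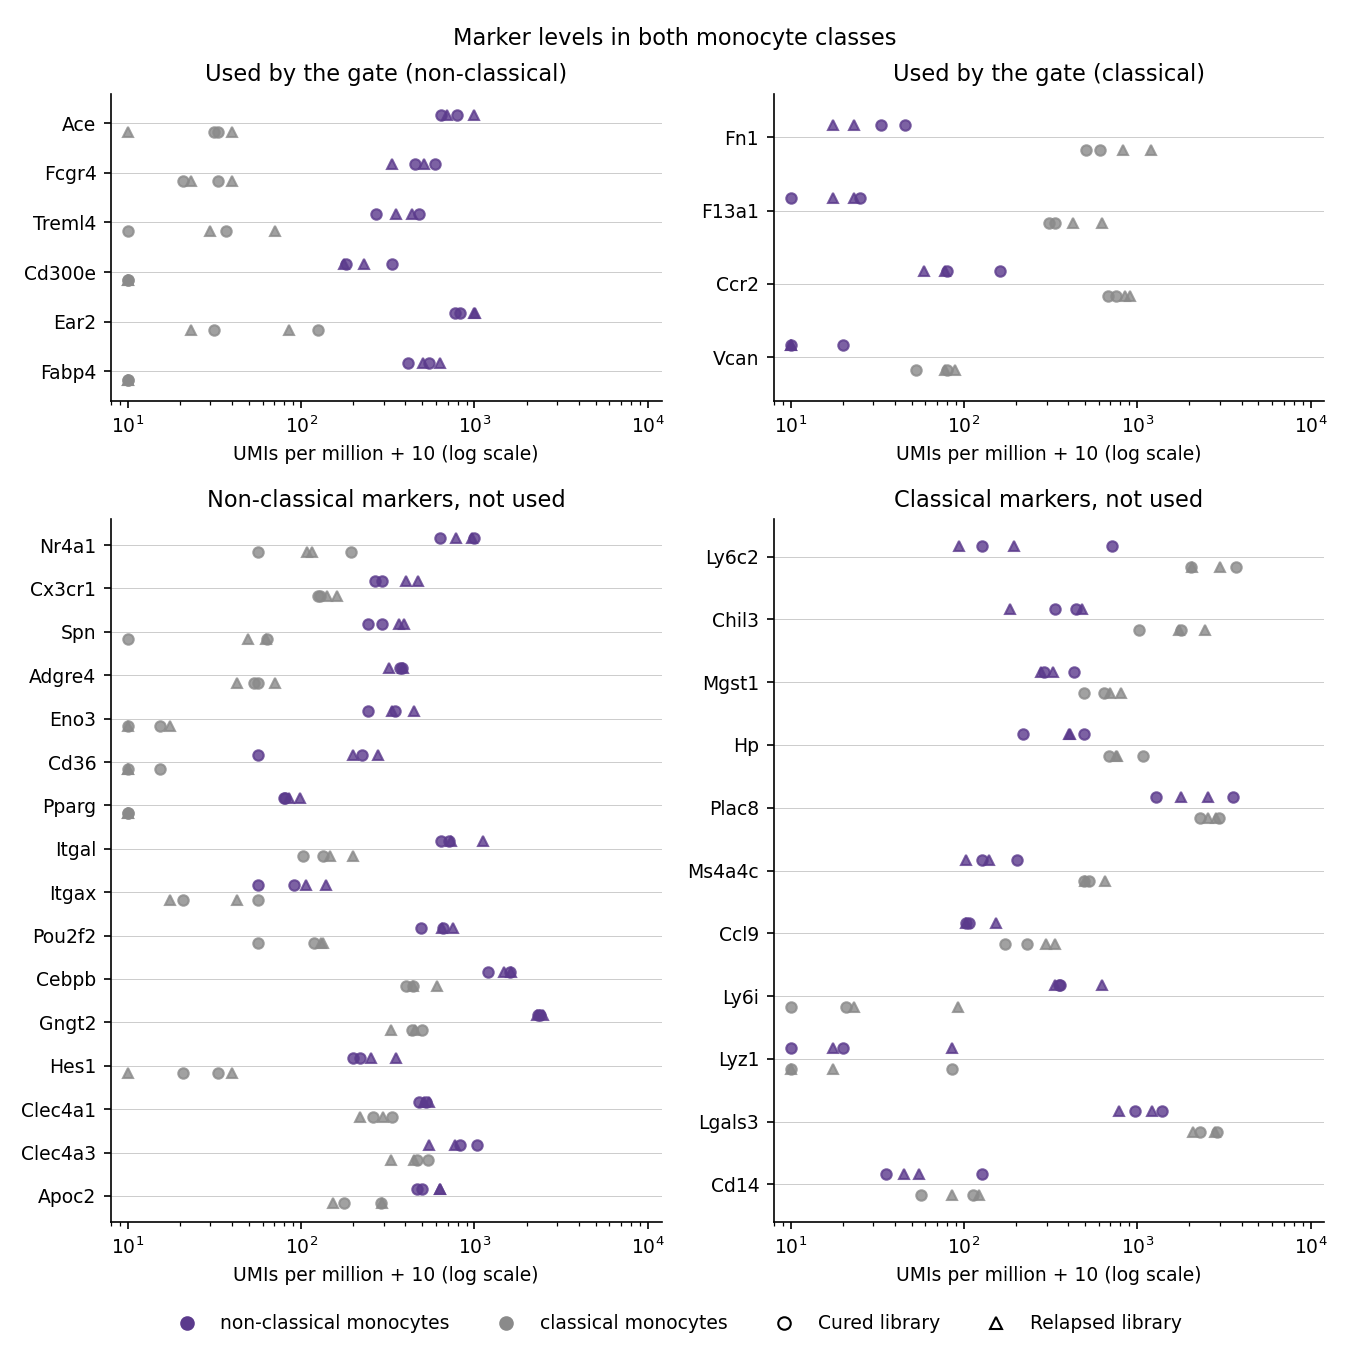
Levels of marker genes in non-classical monocytes (purple) and classical monocytes (grey), as CPM plus 10 on a log axis. Circles are Cured libraries and triangles Relapsed libraries. The upper panels hold genes that the gates used, and in the lower left panel all 4 non-classical libraries lie above all 4 classical ones for each of the 16 genes.

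Markers outside the gate went with the label. Of 16 non-classical markers that the rule did not use, 14 reached a mean of 100 CPM in either class, and all 14 were higher in every library of non-classical than of classical monocytes. Over all 1610 genes that reached that level, 17.3% were separated in this way and 11.6% in the opposite one. Several of the 14, among them Eno3, Cd36, Hes1 and Spn, reached it through the non-classical class alone. The count of 14 is thus partly set by the filter. Nr4a1, the nuclear receptor these cells depend on, stood at 978, 625, 954 and 773 CPM (Cured 1, Cured 2, Relapsed 1, Relapsed 2) in non-classical and at 46.3, 183, 105 and 98.1 CPM in classical monocytes. It was found in 80.8% of the non-classical cells, and in 56.9% after thinning of each cell to 1000 UMIs, against 39.6% and 13.3% of the classical cells and 1.60% and 0.752% of B cells. Cx3cr1, the fractalkine receptor of patrolling cells, averaged 348 ± 94.8 CPM in non-classical monocytes (SD, n = 4 libraries) and ranged over 116 to 151 CPM in classical monocytes. Spn, which encodes CD43, averaged 313 ± 67.2 and 36.5 ± 25.2 CPM, and Pou2f2, which encodes the transcription factor OCT2, 629 ± 108 and 99.9 ± 36.5 CPM, in that order of classes.

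Of 12 classical markers outside the gate, 10 reached 100 CPM. Of these, 8 were lower in every non-classical library, against 11.6% of all 1610 genes, and Ly6i was higher. Ly6c2, one of the genes behind the Ly6C antigen, stood at 116, 701, 83.3 and 186 CPM in non-classical and at 3677, 2039, 2066 and 2980 CPM in classical monocytes. Cured 2 was the highest of the 4 non-classical libraries and still below every classical one. Ly6i, a neighbour of Ly6c2 in the same gene family, went the other way, at 327 to 613 CPM in non-classical and 0 to 83.0 CPM in classical monocytes. Plac8 overlapped between the classes.

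The label was also set against markers of other cells. Of 7 T cell markers, 5 had no UMI in the 224 cells, and the list summed to 0 and 5.08 CPM in the Cured libraries, against 0 and 4.42 CPM in the Relapsed libraries. The 8 B cell markers summed to 303 and 239 CPM in the Cured libraries, against 197 and 137 CPM in the Relapsed libraries, mostly Ighm. The 8 dendritic cell markers summed to 93.1 and 239 CPM in the Cured libraries, against 121 and 79.5 CPM in the Relapsed libraries. Clec9a and Siglech were at 0 in every library, and Flt3, Cd209a, Xcr1 and Ccr7 had 1 UMI each. Bst2, which interferon also induces, made up most of that list. NK cell markers came from few cells, since the 28 and 31 Gzma UMIs of Cured 2 and Relapsed 2 sat in 1 cell each. Neutrophil markers were concentrated further, as described with S100a8 and S100a9 below.

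The largest class difference outside the gate was that of Bcl2a1b, followed by Eno3. Differences between classes are given as log2(CPM + 10), averaged over the 4 libraries, a scale that understates the change of low genes. The 3 Bcl2a1 genes, which encode the anti-apoptotic BCL2 relative A1, were among the 15 most in excess: Bcl2a1b averaged 382 ± 29.9 CPM, Bcl2a1d 296 ± 62.1 CPM and Bcl2a1a 148 ± 30.6 CPM (SD, n = 4), and in classical monocytes no library passed 19.7 CPM for any of them. The log2 differences were 4.84, 4.03 and 3.62. These genes are near-identical copies on chromosome 9, and the way the authors' counting assigned reads among them is not stated in the labels, so both the split among the 3 and their common level are uncertain. Of 13 survival genes 7 reached 100 CPM, and 4 of these lay above in every library, against 17.3% of all 1610 genes. The 4 were the 3 Bcl2a1 genes and Csf1r, and none lay below. Csf1r was used by the gate, and the Bcl2a1 genes reached 100 CPM through the non-classical class alone, so this count is set by the selection.

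Eno3, the muscle-type enolase of glycolysis, stood at 233 and 340 CPM in the Cured and 325 and 437 CPM in the Relapsed libraries, and at no more than 7.55 CPM in classical monocytes. Eno1, the common enolase, did not separate the classes, at 186 to 269 CPM against 139 to 223 CPM. Eno3 was the sole one of 11 glycolysis genes at 100 CPM or more to lie above in every library, against 17.3% of all genes. Pglyrp1, a secreted protein that binds bacterial peptidoglycan, averaged 1294 ± 307 CPM in non-classical and 104 ± 51.0 CPM in classical monocytes. Dusp5 and Dusp16, phosphatases that switch off MAP kinases, differed by 3.47 and 3.77. Hes1, a transcriptional repressor downstream of Notch, differed by 3.44, Cd36, a scavenger receptor for oxidised lipid, by 3.87, and the tetraspanin Cd9 by 3.46. Lilra5, Ltb (lymphotoxin beta), the receptor kinase Grk3 and Cyfip2, a subunit of the actin-regulating WAVE complex, completed the 15.

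**Figure D2:**
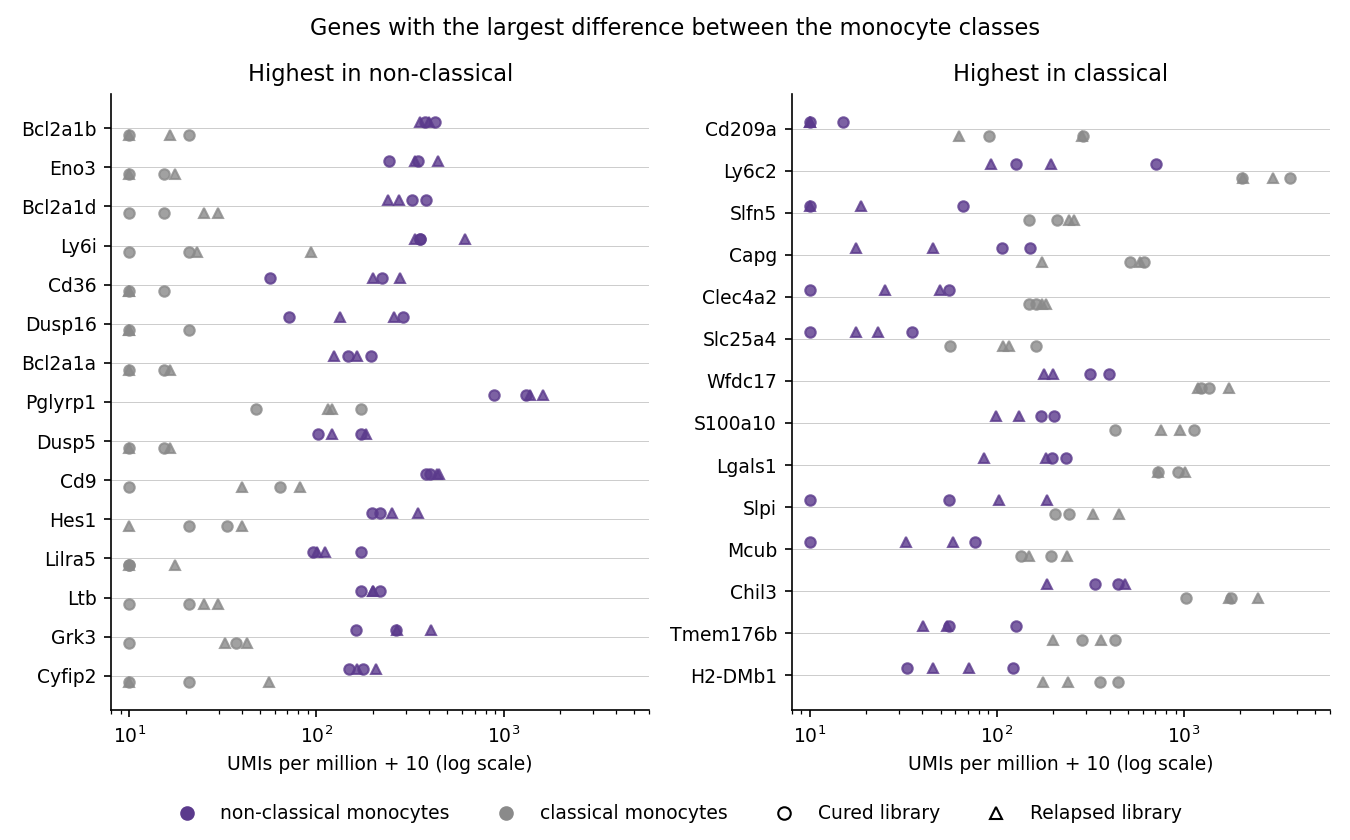
Genes with the largest difference in each direction between non-classical (purple) and classical (grey) monocytes, as CPM plus 10 on a log axis, with circles for Cured and triangles for Relapsed libraries. In each row the 4 libraries of one class all lie above the 4 of the other, as the choice of genes required. Ly6c2 in Cured 2, at 701 CPM, stands closest to the classical libraries among its non-classical points.

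On the classical side the 15 were led by Cd209a, a lectin of monocyte-derived dendritic cells, with a log2 difference of -3.73, Ly6c2 (-3.70) and the interferon-inducible Slfn5 (-3.49). Capg, an actin-capping protein, had -2.82, the calcium-binding S100a10 at -2.40, the galectin Lgals1 at -2.36, Chil3, a chitinase-like protein of myeloid cells, at -2.30 and H2-DMb1, a loading chaperone of MHC class II, at -2.25. Among 12 S100, annexin and related genes 10 lay below in every library, against 11.6% of all 1610 genes, with a median of -1.06. The Cd209a level of the classical class, 52.8 to 278 CPM, came with Clec9a at 0 to 185 CPM and Siglech at 324 CPM in Cured 1. All 14 Siglech UMIs of the classical class lay in 1 of the 8 cells of that library. Dendritic cell markers were thus higher in the class used for comparison, in part through single cells, and their part in these differences was not tested.

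By role, surface receptors and adhesion molecules split between the classes. Of 13 adhesion and patrolling genes at 100 CPM or more, 7 lay above in all non-classical libraries, against 17.3% of all 1610 genes, among them Itgal and Itgb2, the chains of the integrin LFA-1 that holds patrolling cells to the vessel wall. Itgal averaged 790 ± 214 CPM in non-classical and 136 ± 40.0 CPM in classical monocytes. S1pr5, a sphingosine-phosphate receptor, and Cxcr4 were also among the 7. Itgb7 was among the 3 that lay below, against 11.6% of all genes, and so was Ccr2, whose direction the counter-gate fixed. Fcer1g, the chain through which Fc receptors signal, averaged 6660 ± 1067 CPM in non-classical and 4388 ± 717 CPM in classical monocytes, with all libraries apart, whereas its relative Tyrobp overlapped at 5881 to 6286 and 5141 to 6361 CPM. The inhibitory receptor Fcgr2b lay below in every library. Of 7 such genes at 100 CPM, the 3 that lay above in every library were Fcer1g, the kinase Syk and Fcgr4, whose direction the gate fixed, against 17.3% of all genes.

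Of 6 kinases that dasatinib binds and that reached 100 CPM, 5 were higher in every non-classical library, against 17.3% of all genes, and 1 of the 5 was Csf1r, which the gate used. The others included the SRC-family kinases Fgr, Lyn and Fyn. Fgr averaged 410 ± 37.3 CPM in non-classical and 170 ± 27.2 CPM in classical monocytes (SD, n = 4). Abl1 was low, at 10.2 to 53.0 CPM.

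Genes of antigen presentation differed in part. Of 10 MHC class I and peptide loading genes at 100 CPM or more, 4 lay above in every library and none below. Over all 1610 genes these shares were 17.3% and 11.6%. The median log2 difference of the list was 0.07, against 0.06 over all genes. The heavy chains H2-K1 and H2-D1 and their partner B2m were among the 4. They stood at 2530 ± 105, 3530 ± 304 and 3538 ± 193 CPM in non-classical and 1204 ± 87.7, 2106 ± 252 and 1948 ± 154 CPM in classical monocytes. Of 6 MHC class II genes at 100 CPM, none lay above, and H2-DMa and H2-DMb1 lay below.

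Over the 20 sums of 5 cell classes (non-classical and classical monocytes, B cells, T cells, neutrophils) in 4 libraries, the 10 genes most like the summed gate genes had Pearson's r of 0.936 to 0.975 on log2(CPM + 10). The first were Lair1, an inhibitory collagen receptor (0.975), Msn, the membrane linker moesin (0.972), and Nr4a1 (0.960), followed by Gpr35, Krt80, Rap1b, Grk5, Samsn1, Adap1 and Hip1. The points share libraries, and the likeness rests on 4 non-classical sums against the other 16, so no p is given. The gates of the other classes limited UMIs of the gate genes or of Csf1r and Ms4a6c, which also shapes these values.

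Promoters are shown for the genes at the top of the class comparison whose windows held a match to the PU.1 motif GAGGAAGT, the lineage factor of monocytes and macrophages. The windows are from RefSeq on GRCm38.p6 and run from 250 bases before to 50 bases after the annotated start, and capitals mark the match, read on either strand (ACTTCCTC is the same motif on the other one).
Fcgr4, chr1:171018676-171018975, plus strand: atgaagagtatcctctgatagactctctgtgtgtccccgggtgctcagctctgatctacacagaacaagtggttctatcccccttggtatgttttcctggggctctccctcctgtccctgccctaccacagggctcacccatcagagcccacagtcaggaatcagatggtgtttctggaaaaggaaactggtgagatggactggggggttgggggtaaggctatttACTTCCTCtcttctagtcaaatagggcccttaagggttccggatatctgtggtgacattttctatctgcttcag
Bcl2a1a, chr9:88956670-88956969, plus strand: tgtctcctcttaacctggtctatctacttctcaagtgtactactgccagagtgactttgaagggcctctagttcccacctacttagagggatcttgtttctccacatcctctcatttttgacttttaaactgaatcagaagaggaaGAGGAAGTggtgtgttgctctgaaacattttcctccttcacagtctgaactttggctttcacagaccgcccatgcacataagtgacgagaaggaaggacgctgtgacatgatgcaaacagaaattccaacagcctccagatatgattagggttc
Bcl2a1b, chr9:89199023-89199322, plus strand: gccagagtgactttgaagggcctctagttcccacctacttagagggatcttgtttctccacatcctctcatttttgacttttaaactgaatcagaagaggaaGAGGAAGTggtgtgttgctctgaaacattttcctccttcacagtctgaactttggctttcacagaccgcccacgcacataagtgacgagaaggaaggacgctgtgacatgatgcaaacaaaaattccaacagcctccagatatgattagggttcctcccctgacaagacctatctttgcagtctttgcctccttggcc
Bcl2a1d, chr9:88731801-88732100, minus strand: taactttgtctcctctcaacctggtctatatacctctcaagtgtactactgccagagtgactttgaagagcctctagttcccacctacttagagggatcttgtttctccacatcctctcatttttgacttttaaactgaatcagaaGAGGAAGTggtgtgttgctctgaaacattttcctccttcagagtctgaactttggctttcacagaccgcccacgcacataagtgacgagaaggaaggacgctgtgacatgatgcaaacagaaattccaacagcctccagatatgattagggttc
Dusp5, chr19:53528895-53529194, plus strand: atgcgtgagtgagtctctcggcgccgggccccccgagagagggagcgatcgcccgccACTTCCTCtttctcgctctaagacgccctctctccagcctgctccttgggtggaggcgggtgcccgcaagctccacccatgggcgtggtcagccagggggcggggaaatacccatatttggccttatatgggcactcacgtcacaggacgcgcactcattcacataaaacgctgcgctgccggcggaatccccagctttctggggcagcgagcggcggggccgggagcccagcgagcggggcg
The Bcl2a1 windows are copies of each other. Bcl2a1a and Bcl2a1b were identical at 254 of 256 aligned bases, and Bcl2a1a and Bcl2a1d at 288 of 294 with a gap of 6 bases. The match began 24 bases before the start in Fcgr4, 104 bases before it in Bcl2a1a and Bcl2a1d, 148 in Bcl2a1b and 193 in Dusp5.

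PU.1 matches stood in 4 of 12 windows of the 15 genes highest in non-classical monocytes, and 3 of the 4 were the Bcl2a1 copies. The share was 3.20% of all 32851 windows, 7.92% of the 101 windows of the 100 genes most in excess, and 4.95% of the 101 windows of the 100 genes most in deficit. The NBRE motif AAAGGTCA, to which NR4A1 binds as a monomer, stood in 1.51% of all windows and in none of the 101 windows of genes in excess. The C/EBP motif TTGCNNAA stood in 10.8% of all windows, in 14.9% of those in excess, Lilra5 among them, and in 11.9% of those in deficit. Ear2 of the gate genes held it too. Of the 6 gate genes, 5 were matched to a window; Fabp4 was not. A match is a run of letters and says nothing of binding.

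Non-classical monocytes were a smaller share of the blood leukocytes in both Cured libraries than in either Relapsed library. They made up 0.582% (95% exact interval 0.365 to 0.880) of kept barcodes in Cured 1 and 1.45% (1.11 to 1.86) in Cured 2. They made up 1.69% (1.28 to 2.20) in Relapsed 1 and 2.04% (1.63 to 2.51) in Relapsed 2. The groups did not overlap, but the intervals of Cured 2 and Relapsed 1 did. The means were 1.02 ± 0.614% in Cured and 1.86 ± 0.244% in Relapsed (SD, n = 2 each), a difference of -0.848 percentage points with p = 0.333 in a two-sided exact permutation test. With 2 libraries against 2 that is the smallest p the test can give. Intervals here and in the plot of shares cover counting error only, and spread between libraries is spread between pools of mice.

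The split of the monocytes between the classes overlapped between outcomes. Of all gated monocytes, 73.3% and 63.8% were non-classical in the Cured libraries, against 63.2% and 76.3% in the Relapsed libraries. The groups overlapped (68.6 ± 6.72% against 69.8 ± 9.26%, exact permutation p = 1, n = 2 each), and the sign of the difference turned without Cured 2 or without Relapsed 2. Classical monocytes were likewise lowest in Cured 1, at 0.212% of barcodes, with 0.822% in Cured 2 and 0.984% and 0.632% in the Relapsed libraries. Depth per cell was similar, with medians of 2027 and 2375 UMIs in the Cured libraries, against 2240 and 2209 in the Relapsed libraries.

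**Figure D3:**
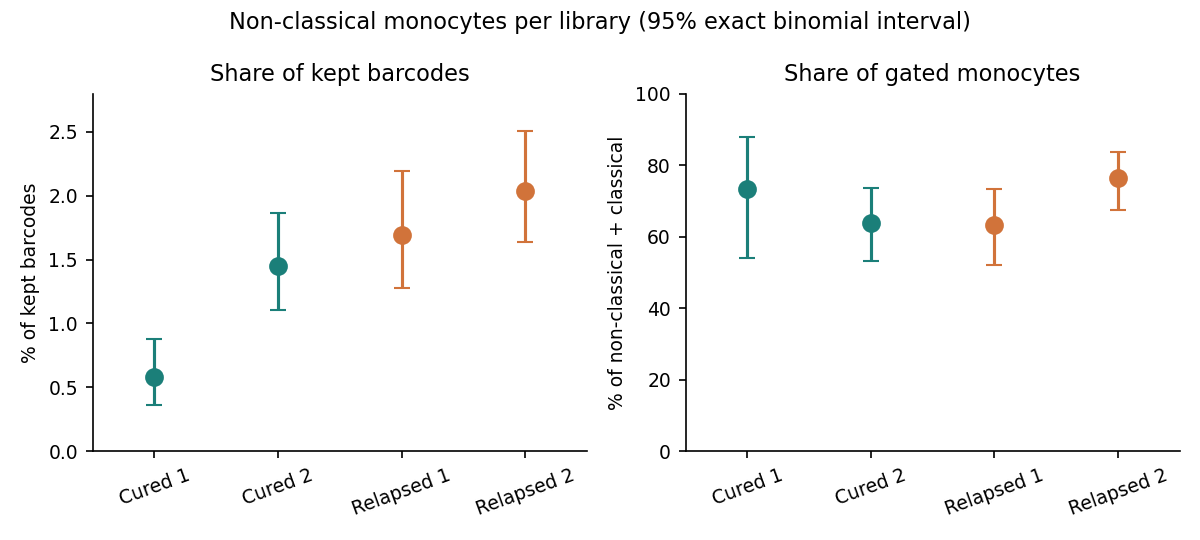
Non-classical monocytes as a percentage of kept barcodes (left) and of all gated monocytes (right), for each library, with 95% exact binomial intervals. On the left both Cured libraries (0.582% and 1.45%) lie below both Relapsed libraries (1.69% and 2.04%); on the right the groups overlap.

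Between outcomes, the genes that passed the test in non-classical monocytes were those of MHC class II. UMIs were summed per library, and Cured was set over Relapsed with the quasi-likelihood test of edgeR on 2461 genes, with Benjamini-Hochberg adjustment over all of them. H2-Aa, H2-Ab1 and Cd74 passed at an adjusted p below 0.05, all higher in Cured. They are 0.122% of the genes tested, and 109 genes had an unadjusted p below 0.05. H2-Aa and H2-Ab1 encode the chains of the class II molecule I-A, and Cd74 the invariant chain that escorts it. The replicates are pools of mice, but for most genes the p-values rest on a spread that edgeR shared across genes. They do not measure the spread of a gene between the pools of its own group.

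Cd74 stood at 2678 and 4693 CPM in the Cured libraries, against 1726 and 2579 CPM in the Relapsed libraries. The groups did not overlap, by a narrow margin between Cured 1 and Relapsed 2. Its log2 fold change was 0.77 (SE 0.18, edgeR adjusted p = 0.0396). Without Cured 2 the change was 0.23 (SE 0.26, edgeR adjusted p = 0.982), and without the 2 cells per library that held most class II UMIs it was 0.76 (SE 0.63, edgeR adjusted p = 0.998), with no gene called.

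H2-Aa stood at 326 and 965 CPM in the Cured libraries, against 250 and 358 CPM in the Relapsed libraries. Cured 1 fell between the Relapsed libraries, so the groups overlapped and the excess belonged to Cured 2. The log2 fold change was 1.21 (SE 0.28, edgeR adjusted p = 0.0396), and -0.00 without Cured 2. H2-Ab1 stood at 279 and 802 CPM in the Cured libraries, against 295 and 247 CPM in the Relapsed libraries, with a log2 fold change of 1.18 (SE 0.29, edgeR adjusted p = 0.0442) and of -0.02 without Cured 2. H2-Eb1, which encodes the beta chain of the class II molecule I-E, did not pass, at 186 and 711 CPM in the Cured libraries, against 129 and 291 CPM in the Relapsed libraries (log2 fold change 1.24, SE 0.33, edgeR adjusted p = 0.166), with -0.32 without Cured 2. H2-DMa, a loading chaperone, did not pass either (1.11, SE 0.40, edgeR adjusted p = 0.710). Without the 2 cells per library that held most class II UMIs the log2 fold changes were larger for H2-Aa (2.30), H2-Ab1 (1.37) and H2-Eb1 (1.82). Their SEs were then 0.77, 0.38 and 0.52, against 0.28, 0.29 and 0.33 with all cells, and none passed. On chromosome 17 of GRCm38 these genes lie close together: H2-DMa at chr17:34119541-34139101, H2-Ab1 at chr17:34257689-34269419, H2-Aa at chr17:34282744-34287823 and H2-Eb1 at chr17:34305867-34316674, per GENCODE M21.

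Class II UMIs came from a minority of cells and a few of them held much of the sum. Of H2-Aa, H2-Ab1 and H2-Eb1 together there were 34 and 488 UMIs in the Cured libraries, against 89 and 203 in the Relapsed libraries. They were found in 7 of 22 and 30 of 60 cells in the Cured libraries, against 16 of 55 and 27 of 87 cells in the Relapsed libraries. The richest cell held 18 and 166 UMIs in the Cured libraries, against 28 and 80 in the Relapsed libraries. In Cured 2, 11 cells held 10 or more, against 1 in Cured 1 and 3 in each Relapsed library. Cured 2 was thus the library with more such cells, and Cured 1 resembled the Relapsed libraries in the share of cells with a class II UMI (31.8%, against 29.1% and 31.0%).

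**Figure D4:**
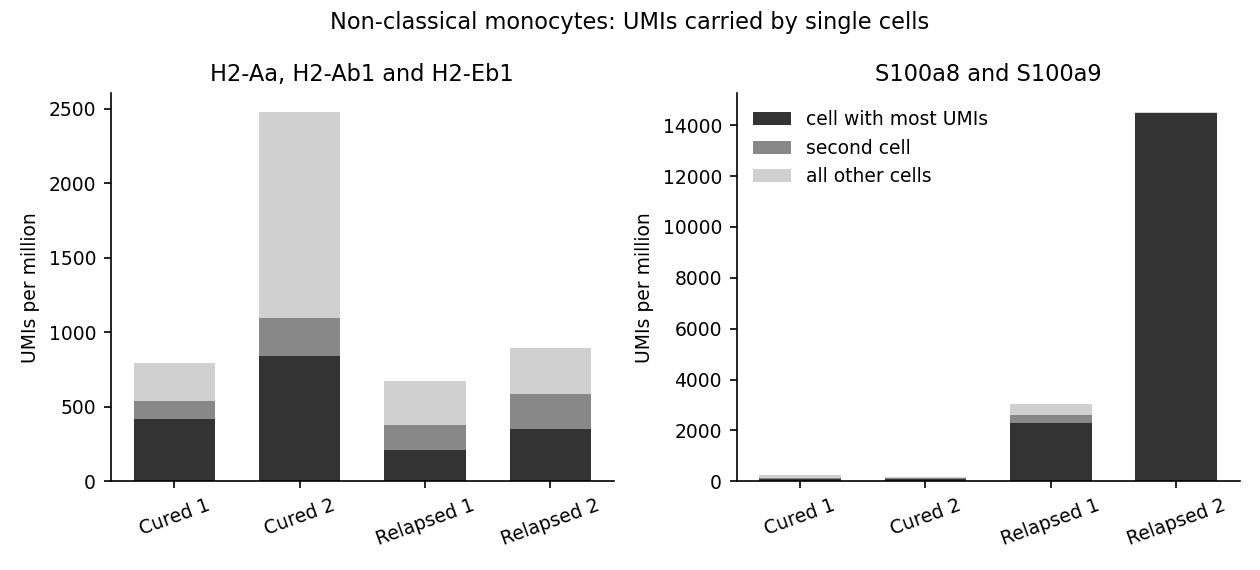
CPM of the 3 class II genes (left) and of S100a8 and S100a9 (right) in the non-classical monocytes of each library, split into the cell that held most, the second cell and all others. In Cured 2 class II UMIs are spread over many cells beyond the first 2, whereas 3277 of the 3287 S100a8 and S100a9 UMIs of Relapsed 2 lie in 1 cell.

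Other values moved with Cured 2. Ly6c2, described above at 701 CPM there, had a log2 fold change of 1.79 (SE 0.44, edgeR adjusted p = 0.202) and of -0.37 without that library. Ccr2 had UMIs in 14 of 60 cells of Cured 2, and in 1 of 22, 6 of 55 and 9 of 87 cells of Cured 1, Relapsed 1 and Relapsed 2. In the same library 7 cells had more than 3 times the class median of UMIs, against 0 in Cured 1 and 0 and 2 in the Relapsed libraries. Without these deep cells the 3 class II calls did not pass (edgeR adjusted p = 0.158 to 0.173), with log2 fold changes of 0.74 for Cd74 to 1.19 for H2-Ab1. Without cells that carried NK, platelet or dendritic cell markers they did not pass either (edgeR adjusted p = 0.617 to 1.00), at 1.17, 1.22 and 0.78. The B cell and dendritic cell marker sums given above were highest in Cured 1 and in Cured 2, and their part in the class II values was not tested.

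By the smallest p, 8 genes in each direction were taken among genes at 50 CPM or more whose libraries did not overlap between groups. That pattern was shown by 18.4% of the genes tested as higher and by 13.9% as lower in Cured. The 8 higher in Cured included Cd74 and H2-DMa of the class II pathway, given above. Apart from Cd74 none passed the test. Vim, the intermediate filament vimentin, stood at 745 and 1219 CPM in the Cured libraries, against 447 and 623 CPM in the Relapsed libraries (log2 fold change 0.90, SE 0.25, edgeR adjusted p = 0.195). Ifi27l2a, an interferon-inducible gene, stood at 1793 and 1956 CPM in the Cured libraries, against 1029 and 1285 CPM in the Relapsed libraries (0.66, SE 0.21, edgeR adjusted p = 0.348). Capg had 6 and 19 UMIs in the Cured libraries, against 1 and 8 in the Relapsed libraries (2.06, SE 0.65, edgeR adjusted p = 0.348). H13, a signal peptide peptidase, Tspo, a mitochondrial outer membrane protein, and Wfdc17 had fold changes of 1.30, 0.94 and 0.99. In classical monocytes, by the same test, Vim had 0.98 (SE 0.19, edgeR adjusted p = 0.000195) and Ifi27l2a 0.76 (SE 0.19, edgeR adjusted p = 0.0172). Both were among the 12 genes called there, whereas Capg, H13, Tspo and Wfdc17 had 0.54, -0.14, -0.06 and -0.25 and did not pass.

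On the other side, Fcho2, an endocytic adaptor, stood at 46.6 and 50.8 CPM in the Cured libraries, against 182 and 137 CPM in the Relapsed libraries (log2 fold change -1.65, SE 0.49, edgeR adjusted p = 0.236). It was found in 2 of 22 and 10 of 60 Cured cells, against 18 of 55 and 26 of 87 Relapsed cells, with at most 3 UMIs in any cell. Mpeg1, the pore-forming perforin-2 of phagocytes, stood at 69.8 and 259 CPM in the Cured libraries, against 500 and 327 CPM in the Relapsed libraries (-0.99, SE 0.33, edgeR adjusted p = 0.528). Slpi, a protease inhibitor, had 0 and 9 UMIs in the Cured libraries, against 23 and 21 in the Relapsed libraries, of which 1 cell held 11 in each Relapsed library. Its log2 fold change was -1.81, and -0.94 without cells that held 5 or more UMIs of S100a8 and S100a9. In neutrophils Slpi averaged 4214.5 CPM. Rsbn1l, Cbfa2t3, Pglyrp1 and Grk3 had fold changes of -1.81, -0.94, -0.56 and -0.88, with edgeR adjusted p of 0.843 to 0.998. For each of these named genes the sign was the same under every alternative that could be fitted, but the size was not. Without Cured 2 the log2 fold changes were 0.39 for Vim, 0.53 for Tspo, 0.33 for H2-DMa, -2.60 for Mpeg1, -1.79 for Cbfa2t3, -0.28 for Pglyrp1 and -0.41 for Grk3. Slpi, with no UMI in the remaining Cured library, then had no interpretable fold change. Without Relapsed 1 it was -0.57 for Cbfa2t3, and without Relapsed 2 it was 3.65 for Capg, which then had 1 UMI in the remaining Relapsed library.

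**Figure D5:**
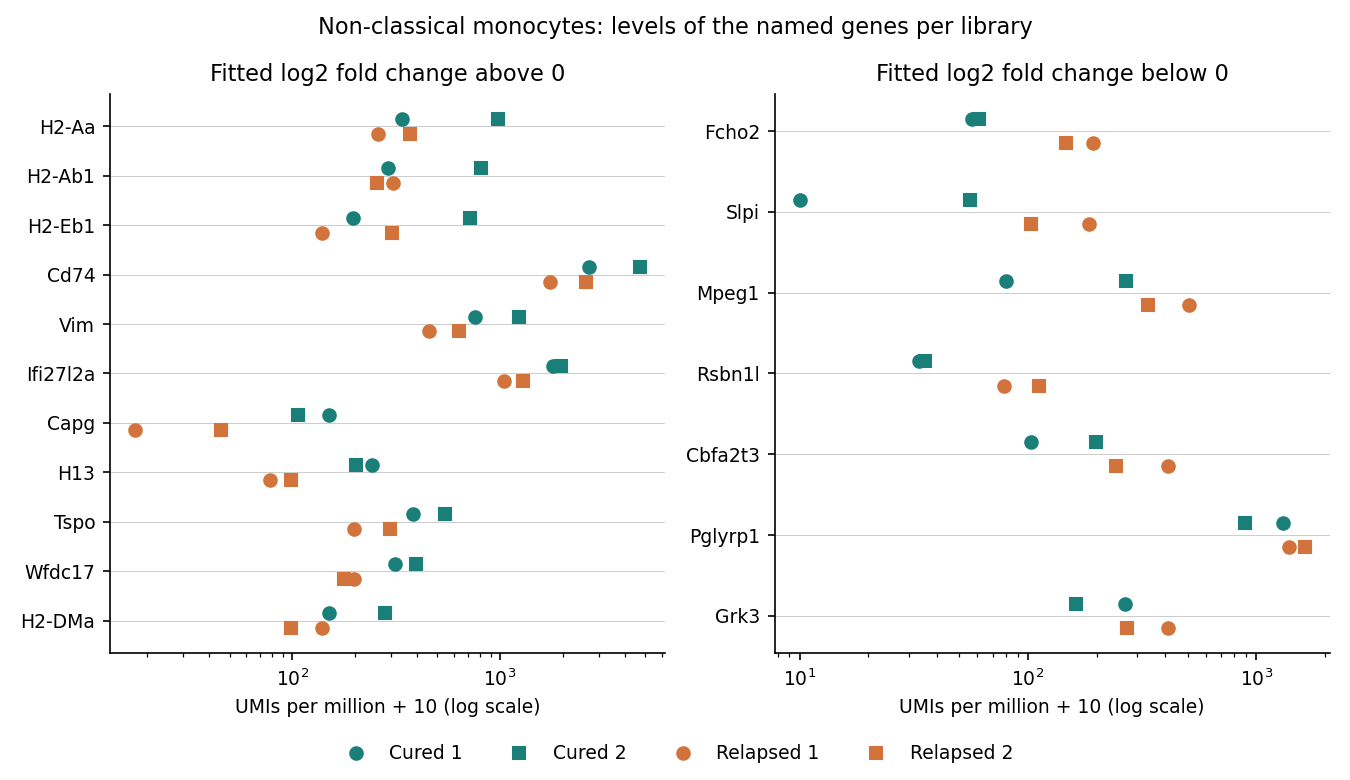
Levels of genes named in the text in non-classical monocytes of each library, as CPM plus 10 on a log axis, for genes with a fitted log2 fold change above 0 (left) and below 0 (right). Cured 2 (teal squares) stands alone for H2-Aa, H2-Ab1 and H2-Eb1, while both Cured libraries lie above both Relapsed libraries for Cd74 and Vim.

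Most genes that mark these cells had fold changes below 0, and no member passed the test. All 16 markers outside the gate were measured well enough to be tested; 14 had a fold change below 0, the median was -0.37, and 7 were lower in both Cured libraries than in either Relapsed library, against 13.9% of all genes. Over all 2461 genes 1271 were below 0 and the median was -0.01. Cx3cr1 stood at 256 and 284 CPM in the Cured libraries, against 394 and 459 CPM in the Relapsed libraries (-0.67, SE 0.32, edgeR adjusted p = 0.998). Itgal stood at 629 and 701 CPM in the Cured libraries, against 1105 and 724 CPM in the Relapsed libraries, and Spn at 233 and 284 against 356 and 380 CPM, also without overlap. The median of the list lay between -0.44 and -0.18 over all 16 alternatives and was -0.37 without Cured 2 and -0.22 without the deep cells.

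Of the 6 gate genes, whose levels are a description since they chose the cells, Ear2 was the one without overlap, at 815 and 762 CPM in the Cured libraries, against 999 and 989 CPM in the Relapsed libraries. Among 13 tested adhesion and patrolling genes of 18, 10 were below 0 with a median of -0.45, which was -0.16 without Relapsed 1; Itga4, an integrin chain, stood at 373 and 350 CPM in the Cured libraries, against 636 and 450 CPM in the Relapsed libraries, and Cxcr4 at 233 and 96.5 CPM in the Cured libraries, against 363 and 168 CPM in the Relapsed libraries, with overlap. Of 16 tested monocyte transcription factors of 21, 14 were below 0, Klf4 with -0.75, Zeb2 with -0.77 and Bach1 with -1.09 among them. Their median was -0.30, and it was -0.53 without Cured 2 and -0.50 without Relapsed 2. None of these passed. The lists share members, such as Itgal in the marker and the adhesion list, so their medians are not separate observations.

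The remaining lists held no call. In the type I interferon list 14 of 28 measured genes were tested, 10 of them above 0 with a median of 0.31. Without Cured 2 the direction turned, with 6 above 0 and a median of -0.13, and without Relapsed 2 the median was 0.0668. Ifitm3 stood at 5099 and 6435 CPM in the Cured libraries, against 5518 and 5883 CPM in the Relapsed libraries. Of 11 tested MHC class I and peptide loading genes 9 were above 0, with a median of 0.13, and without Cured 2 there were 6 and the median was 0.0148; H2-K1 differed by 0.00. Of 6 tested dasatinib-bound kinases 5 were below 0, with a median of -0.20. Fc receptors and adaptors had a median of 0.14 over 7 tested genes, glycolysis 0.19 over 11, lysosomal genes 0.03 over 13, immediate early genes -0.16 over 14, heat shock genes 0.22 over 9, survival genes 0.09 over 9 and mitochondrially encoded transcripts -0.21 over 12. Of 20 cell cycle genes, 4 were tested and 6 had no UMI.

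S100a8 and S100a9, the calprotectin subunits of neutrophils, gave the largest numbers and came from single cells. Together they had 10 and 35 UMIs in the Cured libraries, against 403 and 3287 in the Relapsed libraries. In Relapsed 2, 3277 of these lay in 1 cell, which also held 479 Camp and 531 Ngp UMIs, granule genes of immature neutrophils. In Relapsed 1, 303 lay in 1 cell. The log2 fold changes were -5.58 for S100a8 and -5.52 for S100a9 (SE 1.76 and 1.47, edgeR adjusted p = 0.998 each), and the groups did not overlap. The gate limits Cxcr2 and Retnlg but not these genes. DESeq2 called both (adjusted p = 0.0168 and 0.000892) and no other gene. Without the 9 cells that held 5 or more of these UMIs, edgeR called H2-Aa, H2-Ab1 and Ly6c2.

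Whether the outcome difference itself differed between the monocyte classes was tested by a class-by-outcome term in a model that also held a term for each library. It passed for 2 of 2500 genes (0.08%), S100a9 and Ifitm1, and 93 had an unadjusted p below 0.05. Ifitm1, an interferon-induced membrane protein that neutrophils carry too, stood at 46.6 and 25.4 CPM in the Cured libraries, against 356 and 48.6 CPM in the Relapsed libraries, in non-classical monocytes. In classical monocytes it had 0 and 19 UMIs in the Cured libraries, against 2 and 0 in the Relapsed libraries, and 1 cell held all 19. The difference of the log2 fold changes, non-classical minus classical, was -7.84 for S100a9 (SE 0.68, edgeR adjusted p = 3.98e-09) and -6.17 for Ifitm1 (SE 0.99, edgeR adjusted p = 6.97e-07). Without the cells rich in S100a8 and S100a9 neither passed, and Chil3 and Apoe passed instead. For the class II genes the interaction did not pass, and in classical monocytes H2-Aa stood at 370 and 2212 CPM in the Cured libraries, against 2191 and 551 CPM in the Relapsed libraries.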

How the data were processed

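The deposited values are raw UMI counts per gene and barcode, which the authors made with Cell Ranger 3.1.0 on mm10, per the submitters' processing notes; the annotation release is not given in the sources used here. Libraries were 5′ single-cell RNA, and every barcode in the files held at least 500 UMIs. Of 16157 barcodes 718 were left out and 15439 kept. Cells were gated on raw UMIs as given above, with no clustering. No doublet caller was run; the limits on genes of other lineages and the alternatives without deep or mixed cells stand in its place.

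UMIs were summed per class and library. edgeR 4.0.16 (R 4.3.3; TMM factors, filterByExpr, robust quasi-likelihood test, Benjamini-Hochberg, threshold 0.05) was the test, with DESeq2 1.42.0 as an alternative. Shares were compared with an exact permutation test (scipy 1.17.1), and intervals are Clopper-Pearson at 95%. Alternatives were other scaling, no count filter, a gate of 3 UMIs, a mitochondrial limit of 5%, thinning to 1000 UMIs, cells left out, each library left out and a replicate block; those without deep cells, cells rich in S100a8 and S100a9 or cells rich in class II UMIs were chosen after seeing the data. On simulated counts for the non-classical comparison (2493 genes tested on average), 26.2% of 2-fold and 85.7% of 4-fold changes were recovered, with 4.2 false calls per round. The false calls came beside 121 and 418 recovered changes over all rounds, so they cannot be set against the few calls made here. Every simulated gene had the same spread between libraries. The rates therefore do not describe genes whose UMIs sit in single cells. Replicates are pools of mice, and for most genes the edgeR p-values rest on a spread shared across genes, not on that gene's own spread between pools.

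The cells, gene lists and comparisons were chosen with earlier results of these data known. Named genes were the gate genes, the genes past a test or the 8 in each direction with the smallest p among those at 50 CPM or more without overlap, the 15 per direction with the largest class difference at 100 CPM or more, the 3 most abundant tested members of a list (any member of lists of 12 or fewer), the genes past the interaction test and the 10 most like the gate sum. Immunoglobulin, T cell receptor, haemoglobin, mitochondrial, ribosomal, sex-linked and predicted genes were left out of the ranked choices. Other genes named within lists, among them Klf4, Zeb2, Bach1, Cxcr4, Itga4 and the S100 genes, were chosen after their values were seen. Results for some genes are not reported here.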

Additional observations from a re-analysis of the deposited data

Results flagged for a closer look

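S100a9 and Ifitm1 differed in their outcome effect between the monocyte classes by the interaction test. For S100a9 the log2 fold change of Cured over Relapsed, non-classical minus classical, was -7.84 (edgeR adjusted p = 3.98e-09), from -5.52 in non-classical and 2.41 in classical monocytes. In Relapsed 2, 1 cell held 1320 of the 1326 S100a9 UMIs of the non-classical monocytes, and in Relapsed 1, 1 cell held 149 of 195. On the classical side, 1 cell of Cured 2 held 65 of the 70 S100a9 UMIs of that library. For Ifitm1 the difference was -6.17 (edgeR adjusted p = 6.97e-07), and 25 of its 47 UMIs in non-classical monocytes of Relapsed 1 lay in 1 cell. In classical monocytes of Cured 2, 1 cell held all 19. Without Cured 2 no gene passed the interaction test, and 186 had an unadjusted p below 0.05.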

How the results depend on the processing

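The lower share of non-classical monocytes in Cured kept its direction under all 10 alternatives run (-1.28 to -0.413 percentage points). Their share of gated monocytes, a difference of -1.19 percentage points, turned to 3.57 without Cured 2 and 5.36 without Relapsed 2 (lowest -7.73 when 1 library was left out). The difference in median UMIs per cell, -23.5, turned to 150.5 without Cured 1 (lowest -197.5) and to 2.75 without cells rich in S100a8 and S100a9.

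The 3 genes called in non-classical monocytes became 0 with library totals only, with a mitochondrial limit of 5%, without NK, platelet and dendritic marker cells, without deep cells and without the 2 cells per library richest in class II UMIs (73 to 102 genes at an unadjusted p below 0.05). Without those richest cells the fold changes of H2-Aa, H2-Ab1 and H2-Eb1 were larger than with all cells, as were their SEs. With no count filter there were 5 calls (S100a9, Ifitm1, Wfdc21, Ly6c2 and Ly6g), none of them of class II. DESeq2 and thinning each called S100a8 and S100a9 alone. Leaving out 1 library gave 0 to 8 calls: none without Cured 2, and without Relapsed 1 8 genes, all lower in Cured and none of class II. The replicate block gave 1 call, S100a9; deviations of same-numbered libraries had a correlation of 0.0137 over 2461 genes, so the numbers were not taken to pair the pools. Calls in classical monocytes, 12, became 1 with DESeq2 and 6 to 23 when 1 library was left out. Interaction calls, 2, became 0 to 6.

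When 1 library was left out, log2 fold changes spanned -0.0201 to 1.56 for H2-Ab1, -0.0037 to 1.63 for H2-Aa, -0.32 to 2.04 for H2-Eb1 and -0.37 to 2.59 for Ly6c2, each lowest without Cured 2. They spanned -0.47 to 0.03 for Ace (highest without Relapsed 1), -0.0476 to 0.53 for Fcgr4 (lowest without Relapsed 2), -0.59 to 0.19 for Treml4 (highest without Cured 2) and -0.21 to 0.64 for Cd300e, which was -0.10 without Relapsed 1. The cause of these changes was not tested. Cured 1 was the thinnest library, with 22 cells and 42951 UMIs.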
